A study of Mus musculus with 6 samples.

Results

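The Hoxd cluster and its neighbour Evx2 are 10 homeobox genes that lie side by side on mouse chromosome 2. In order along the chromosome they are Evx2, Hoxd13, Hoxd12, Hoxd11, Hoxd10, Hoxd9, Hoxd8, Hoxd4, Hoxd3 and Hoxd1, out of 55341 gene symbols in the annotation. The genes were chosen by name, with the peak calls at Evx2 and Hoxd13 already known, so the values below are a description and no test was applied to them. Mouse colonic organoids, which are cultures of colonic epithelial cells from C57BL/6 mice, were grown without TNFα (wt) or with the inflammatory cytokine TNFα at 40 ng/ml for 3 weeks (wt+TNFα). Chromatin immunoprecipitation sequencing (ChIP-seq) was done for 2 histone marks, trimethylated lysine 27 of histone H3 (H3K27me3) and trimethylated lysine 4 of histone H3 (H3K4me3). Each mark was sequenced from 1 library of each condition beside 1 input, made from organoids pooled over several wells, so no value has a replicate error and no p-value can be given.

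Hox genes encode homeodomain transcription factors that specify position along the body axis, and their order on the chromosome follows the order in which they are switched on in the embryo. H3K27me3 is laid down by Polycomb repressive complex PRC2 over broad domains that keep developmental genes silent, and Hox clusters are classic targets. H3K4me3 marks the promoters of active genes and of genes held ready for activation, and promoters that carry both marks are called bivalent. In the gut, genes at the Hoxd13 end of the cluster are known for their role in the hindgut.

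The libraries differed as a whole. The wt+TNFα H3K27me3 peaks covered 303 Mb against 102 Mb for wt, and on chromosome 2 the covered length was 2.24 times as long in wt+TNFα. The H3K27me3 library of wt+TNFα stood apart on chromosome X, where it had 11578 peaks against 247 in wt. For H3K4me3 the wt peaks covered 18.2 Mb against 19.97 Mb for wt+TNFα, and 3 of the wt peaks and 0 of the wt+TNFα peaks lay on chromosome Y. The study states more sequenced reads for wt+TNFα than for wt in the H3K4me3 and input libraries, and nearly equal numbers for H3K27me3. With 1 library each, differences between the cultures or libraries cannot be told apart from TNFα. H3K4me3 was called at the promoter of 9 of 10 marker genes of colonic epithelium in each condition, without Car1 in wt and without Krt20 in wt+TNFα, and at 0 of 9 marker genes of immune cells, fibroblasts, endothelium and neurons in either condition.

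In wt, a single H3K27me3 peak covered the whole cluster with Evx2. It ran from 74643446 to 74773822 on chromosome 2 (GRCm38/mm10), a width of 130377 bp. By width it ranked 2 of 30594 peaks, behind the peak over the Hoxc cluster, and its fold enrichment over the local background was 4.06, higher than 99.5% of the list. In wt+TNFα, the main H3K27me3 peak began only between Hoxd13 and Hoxd12, at 74673697, and ended at 74815124. It was 141428 bp wide, with a fold enrichment of 4.63 that was higher than 99.8% of its list. The Evx2-side edge thus lay 30251 bp further inside and the Hoxd1-side edge 41302 bp further outside than in wt. A separate small wt+TNFα peak, 5285 bp wide and 1.98 in fold enrichment, lay beyond Evx2 from 74645747 to 74651031. Fold enrichments were computed separately for each library, so they are ranked within a list and the ratio between conditions is not read.

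**Figure D1:**
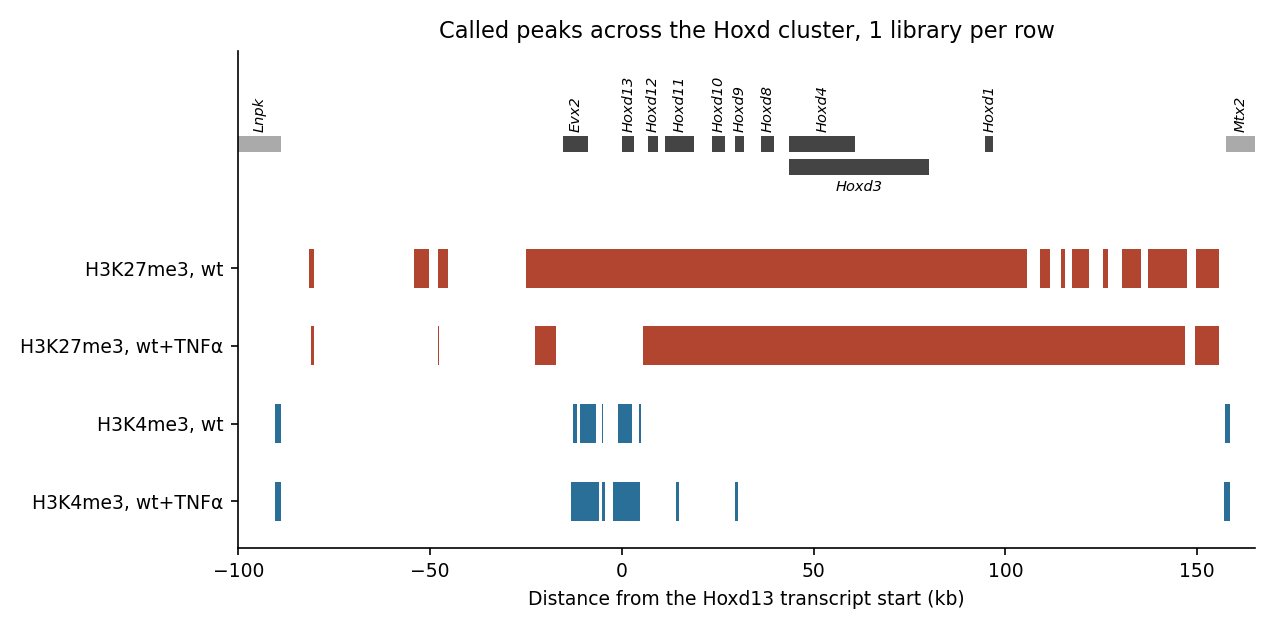
Peaks called in each of the 4 libraries (coloured bars) and the genes (dark grey, members; light grey, neighbours) against distance from the Hoxd13 transcript start in kb. The H3K27me3 bar over the cluster measured 130377 bp for wt and 141428 bp for wt+TNFα, and the latter left Evx2 and Hoxd13 uncovered.

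The interval from the first base of Evx2 to the last base of Hoxd1 is 112152 bp long (74652991 to 74765142). In wt H3K27me3 covered 100% of these bases, and in wt+TNFα 81.5%. For H3K4me3 the covered share was 8.62% in wt, which is 9667 bp, and 14.99% in wt+TNFα, which is 16810 bp. When each list was restricted to peaks with a −log10 q over its median, it was 0% in wt and 12.85% in wt+TNFα. In wt every H3K4me3 base of the interval was also under H3K27me3. In wt+TNFα 9.50% of the H3K4me3 bases were, and the stretch with both marks was 1597 bp. Bases with neither mark made up 0% of the interval in wt and 4.90% in wt+TNFα.

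Within the interval, H3K27me3 differed between the conditions only at the Evx2 end. Over the 18609 bp from Evx2 to the end of Hoxd13, H3K27me3 covered 100% in wt and 0% in wt+TNFα. Over the same bases the H3K4me3 share was 49.2% without and 73.3% with TNFα. Over the 90130 bp from Hoxd12 to Hoxd1, H3K27me3 covered 100% in both conditions, and H3K4me3 covered 0% in wt and 1.77% in wt+TNFα. The spacer between Evx2 and Hoxd13, 8752 bp long, lay wholly under H3K27me3 in wt and outside it in wt+TNFα, with H3K4me3 over 37.8% and 67.7%. In wt+TNFα the cluster was thus split into a pair of genes with H3K4me3 alone and 8 genes under H3K27me3.

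At the level of promoters, defined as the bases up to 1000 bp from any transcript start in either direction, all 10 genes had 100% of their bases under H3K27me3 in wt. Evx2 and Hoxd13 had 0% in wt+TNFα, and the other 8 had 100%. Over all gene symbols, 14.2% had a H3K27me3 promoter peak in wt and 23.2% in wt+TNFα. A loss, meaning at least 1 promoter base covered in wt and not in wt+TNFα, was thus called at 2 of 10 genes, where 23.8% of the 7876 genes with a wt promoter peak had one. A H3K27me3 promoter peak in wt alone was called at the same 2 of 10, against 7.31% of those genes. The lists reached down to a −log10 q of 0.302 in wt and 0.747 in wt+TNFα, with medians of 0.779 and 1.34. The wt peak over the 10 genes had 9.65, so the list behind these shares held mostly weaker peaks. A gain, the reverse of a loss, was called at 0 of the 8 genes with a wt+TNFα peak, against 74.0% of 12814 genes. No gain could be called at these promoters, since they were fully covered in wt. With subtraction of whole peaks in place of bases, a loss was called at 0 genes, because the long wt peak overlaps the wt+TNFα domain elsewhere. Over the 10 genes the median difference in covered promoter share, wt+TNFα minus wt, was 0 percentage points, and over the 13390 genes with a H3K27me3 peak in either condition it was 20.4.

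For H3K4me3, promoter peaks were called at 2 of the 10 genes in wt and at 4 in wt+TNFα, where 24.3% and 24.7% of all gene symbols had one. Evx2 and Hoxd13 had 100% of their promoter bases under H3K4me3 in both conditions. Hoxd11 had 0% in wt and 18.5% in wt+TNFα, and Hoxd9 had 0% in wt and 42.8% in wt+TNFα. The other 6 genes had 0% in both. A gain of H3K4me3 bases was called at 2 of the 4 genes with a wt+TNFα peak, against 78.6% of 13672 genes. The same 2 of 4 had a H3K4me3 promoter peak in wt+TNFα alone, against 3.44% of those genes. The gain was called at 0 genes when promoters ended at the transcript start, and at 0 when both H3K4me3 lists were held to equal covered length. A loss of H3K4me3 bases was called at 0 of the 2 genes with a wt peak, against 41.0% of 13426 genes. The median difference was 0 percentage points over the 10 genes, of which 6 had no H3K4me3 promoter peak in either condition. It was 1.35 over the 13897 genes with an H3K4me3 peak in either condition, so the medians are of unlike sets. The 4 members with a peak differed by 0 at Evx2 and Hoxd13, 18.5 at Hoxd11 and 42.8 at Hoxd9.

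**Figure D2:**
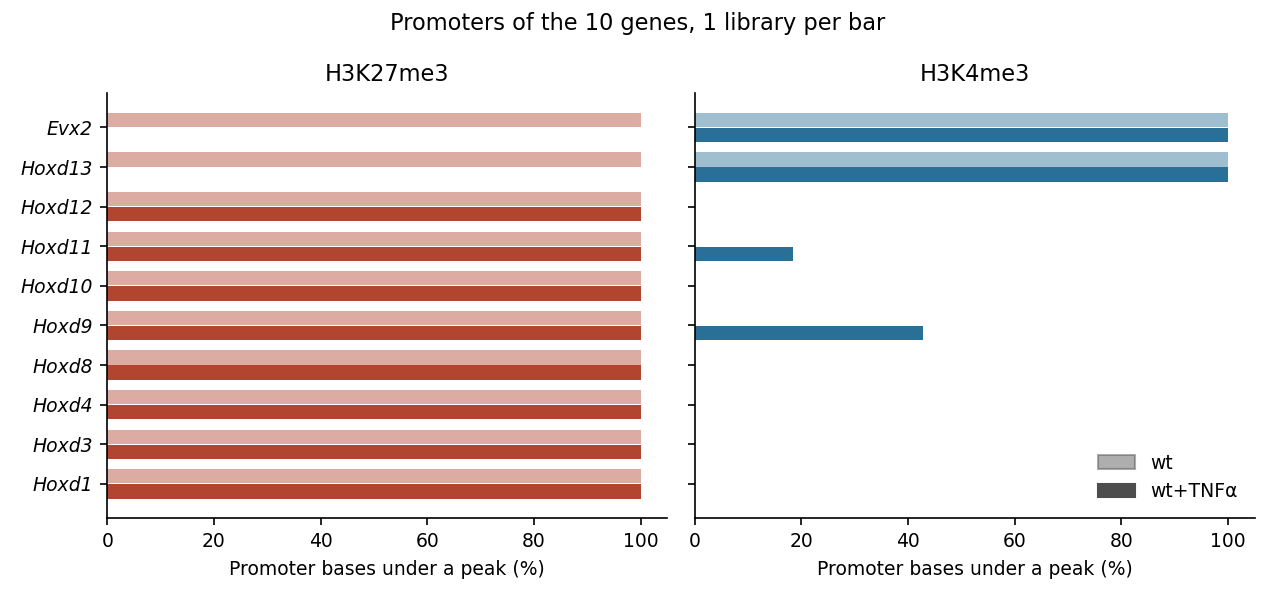
Share of promoter bases under a peak (%, x axis) for each of the 10 genes, in wt (pale bars) and wt+TNFα (dark bars), for H3K27me3 on the left and H3K4me3 on the right. Evx2 and Hoxd13 went from 100% to 0% for H3K27me3, and Hoxd11 and Hoxd9 had H3K4me3 over 18.5% and 42.8% in wt+TNFα.

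Both marks together were called in wt at the promoters of Evx2 and Hoxd13, and both genes had H3K4me3 without H3K27me3 in wt+TNFα. The wt call of both marks was lost under the same restriction, since the wt H3K4me3 peaks of both genes lay below the median. With all peaks kept, the change from both marks to H3K4me3 alone was called at 2 of 2 members, against 12.8% of the 1323 genes with both marks at the promoter in wt. A loss of H3K27me3 bases combined with a gain of H3K4me3 bases at the promoter was called at 0 of 10 members, against 7.03% of 7876 genes, since the promoters of Evx2 and Hoxd13 were already filled by H3K4me3 in wt. With a promoter of 2000 bp on each side, a gain of H3K4me3 was called at Evx2 and Hoxd13 too, 4 genes in all. These genes were chosen with the peak calls known, so their counts are read as a description only.

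Evx2 encodes a homeodomain transcription factor of the even-skipped family and is transcribed away from the cluster, on the minus strand (74652991 to 74659557). Hoxd13, the gene at the end of the Hoxd series that acts latest and most posteriorly, lies on the plus strand (74668310 to 74671599). Their starts are 8753 bp apart. The promoters are shown because these are the genes that differed in H3K27me3, and that of Hoxd12 because it is the first promoter that stayed covered. The sequences are those of RefSeq on GRCm38.p6, 250 bases before to 50 after the RefSeq start, written 5′ to 3′ on the strand of the gene, with CpG dinucleotides in capitals. For Hoxd13 the RefSeq start, 74668225, lies upstream of the GENCODE start used for the promoter shares, and the printed window does not reach the latter.
Evx2 promoter, chr2:74659508-74659807, minus strand: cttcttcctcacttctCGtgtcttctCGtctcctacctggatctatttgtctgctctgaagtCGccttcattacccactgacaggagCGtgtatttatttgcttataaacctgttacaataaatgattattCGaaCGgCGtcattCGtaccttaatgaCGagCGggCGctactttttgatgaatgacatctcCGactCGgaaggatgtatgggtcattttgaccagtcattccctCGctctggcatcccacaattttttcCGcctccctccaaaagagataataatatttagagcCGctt
Hoxd13 promoter, chr2:74667975-74668274, plus strand: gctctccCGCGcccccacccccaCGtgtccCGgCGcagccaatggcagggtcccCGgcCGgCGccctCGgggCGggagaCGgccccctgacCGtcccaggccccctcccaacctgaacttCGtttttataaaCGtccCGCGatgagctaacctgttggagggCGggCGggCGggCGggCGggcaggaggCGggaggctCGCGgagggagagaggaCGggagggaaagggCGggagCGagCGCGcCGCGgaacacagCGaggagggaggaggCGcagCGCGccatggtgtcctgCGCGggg
Hoxd12 promoter, chr2:74674763-74675062, plus strand: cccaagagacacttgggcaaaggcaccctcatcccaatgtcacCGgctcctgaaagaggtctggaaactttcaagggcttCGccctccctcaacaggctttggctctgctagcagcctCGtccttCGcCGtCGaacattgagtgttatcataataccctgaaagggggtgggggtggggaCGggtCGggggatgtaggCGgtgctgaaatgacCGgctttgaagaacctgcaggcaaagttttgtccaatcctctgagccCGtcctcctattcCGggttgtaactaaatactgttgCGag

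The Hoxd13 promoter held 37 CpG in 300 bases, more than 94.4% of the 32851 RefSeq mouse promoters, whose median was 7. The Evx2 promoter held 16 and the Hoxd12 promoter 13, and their GC contents were 44.3% and 55.0%, against 74.3% for Hoxd13. The letters TATAAA were searched on both strands and found at 1 place each in the Evx2, Hoxd13 and Hoxd4 windows. The Hoxd4 window is not printed here. In the Hoxd13 window the matches on both strands overlap, and 13.6% of all promoters hold these letters. The NF-κB consensus motif was searched on both strands, matched 0 times in the promoters of the 10 genes and was present in 8.46% of all promoters. A missing match says only that these letters are not in this window.

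H3K4me3 lay in 5 peaks in the interval in each condition. At Evx2 the wt peak over the start ran from 74657468 to 74661454, was 3987 bp wide and had a fold enrichment of 12.0, higher than 19.4% of the list. A neighbouring wt peak, 1112 bp wide and 11.6 in fold enrichment, lay over the middle of the gene. In wt+TNFα a single peak 7137 bp wide from 74655125 to 74662261 took in both, with a fold enrichment of 25.4 that was higher than 46.2% of its list. Its summit lay 1500 bp inside the gene from the inner of the 2 Evx2 starts, where that of the wt peak lay 53 bp inside. H3K4me3 covered 48.8% of the Evx2 gene body in wt and 67.5% in wt+TNFα.

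At Hoxd13 the wt peak ran from 74667247 to 74670961, 3715 bp wide, with a fold enrichment of 24.7, higher than 50.3% of the list. The wt+TNFα peak ran from 74665888 to 74673167, 7280 bp wide, with a fold enrichment of 38.5, higher than 79.1% of its list. The summits lay 178 bp and 206 bp downstream of the Hoxd13 start. H3K4me3 covered 80.6% of the gene body in wt and 100% in wt+TNFα. A small wt peak of 506 bp past the end of the gene was taken into the wider wt+TNFα peak except for its last 6 bp. In the spacer between both genes a weak peak measured 347 bp in wt and 796 bp in wt+TNFα, and its fold enrichment was 5.77 and 5.81.

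These were among the widest H3K4me3 peaks of the wt+TNFα list, ranking 28 and 26 of 11894 by width. Peaks of at least 7000 bp made up 0.286% of the wt+TNFα list and 0.216% of the wt list. Among 13201 genes with an H3K4me3 promoter peak in both conditions, the strongest promoter peak was wider in wt+TNFα by a median of 107 bp. It was wider by 3150 bp at Evx2 and by 3565 bp at Hoxd13. Part of each difference lay over the separate wt peaks of 1112 bp and 506 bp that the wt+TNFα peaks took in. A widening at least as large was found at 15 genes for the Evx2 value and at 11 genes for the Hoxd13 value, these genes included. The position of the fold enrichment within its list was 26.8 percentage points higher in wt+TNFα at Evx2 and 28.8 at Hoxd13, against a median of 1.13. Of the genes, 7.15% and 5.83% had a difference at least as large. The fold enrichment at Hoxb13, without H3K27me3 in either condition, exceeded 58.4% of the wt list and 86.8% of the wt+TNFα list. At Evx1 these shares were 8.86% and 38.0%, and at Hoxa13 86.4% and 95.7%. The rise was thus not particular to Evx2 and Hoxd13. The higher read number of the wt+TNFα H3K4me3 library moved with these values, and its part in them was not tested.

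**Figure D3:**
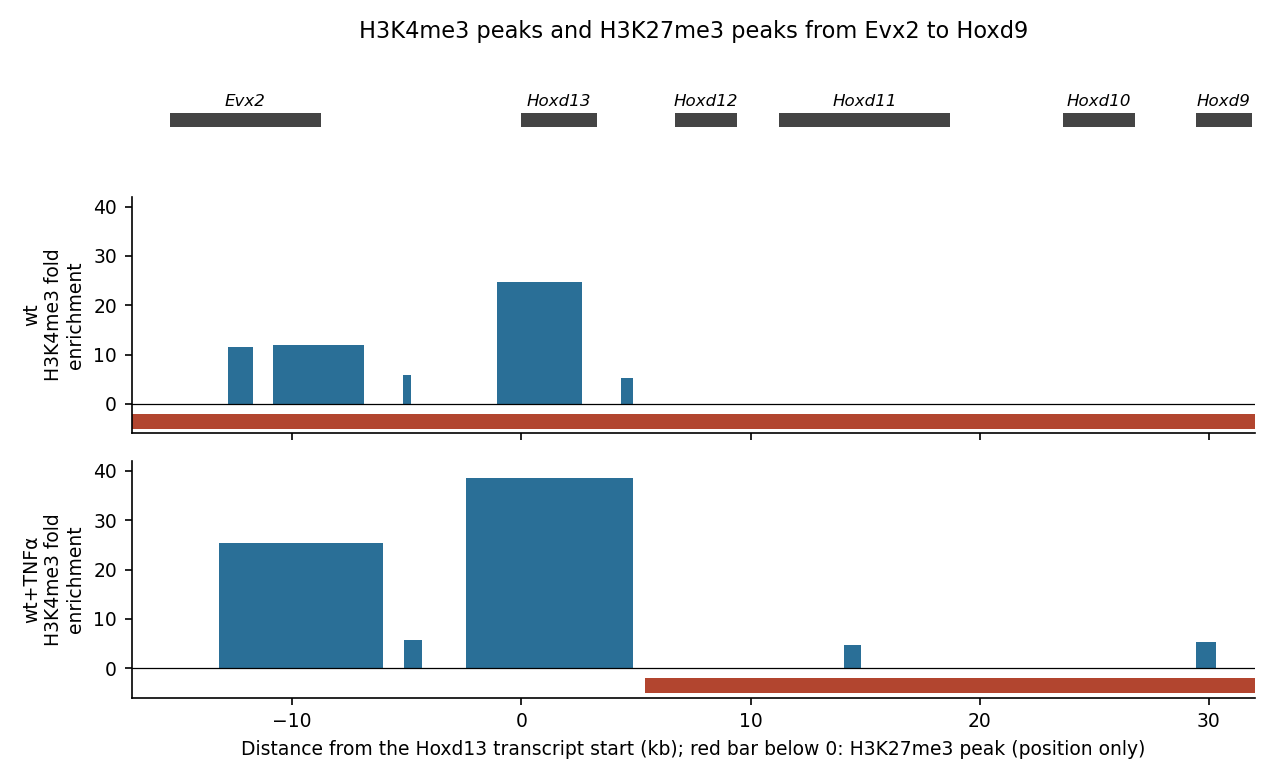
H3K4me3 peaks (blue, height: fold enrichment of the peak over local background, y axis) and the H3K27me3 peaks (red bars below 0, position only) from Evx2 to Hoxd9, in kb from the Hoxd13 transcript start, for wt (upper) and wt+TNFα (lower). The peaks over Evx2 and Hoxd13 reached 12.0 and 24.7 in wt and 25.4 and 38.5 in wt+TNFα, and H3K27me3 was called under them in wt alone.

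In wt all 5 H3K4me3 peaks of the interval lay wholly under H3K27me3, as did 4.74% of the 11552 wt H3K4me3 peaks in the genome. In wt+TNFα the 3 peaks from Evx2 to past Hoxd13 had 0% of their bases under H3K27me3, and the peaks at Hoxd11 and Hoxd9 had 100%. In that list 6.79% of peaks lay wholly under H3K27me3.

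The edge of the wt+TNFα H3K27me3 domain lay 2098 bp past the end of Hoxd13 and 1316 bp before the start of Hoxd12, with 529 bp between the last H3K4me3 base and the first H3K27me3 base. Hoxd12 itself had H3K27me3 over 100% of its body and no H3K4me3 in either condition. With a promoter of 2000 bp on each side, the Hoxd12 promoter reached over the edge and had 17.1 percentage points less H3K27me3 in wt+TNFα. The 300 bases around the edge are shown from GRCm38.p6, on the plus strand, since this is where the domain of the 8 remaining genes began. They held 5 CpG, also in capitals, and their GC content was 49.3%.
H3K27me3 edge in wt+TNFα, chr2:74673547-74673846, plus strand: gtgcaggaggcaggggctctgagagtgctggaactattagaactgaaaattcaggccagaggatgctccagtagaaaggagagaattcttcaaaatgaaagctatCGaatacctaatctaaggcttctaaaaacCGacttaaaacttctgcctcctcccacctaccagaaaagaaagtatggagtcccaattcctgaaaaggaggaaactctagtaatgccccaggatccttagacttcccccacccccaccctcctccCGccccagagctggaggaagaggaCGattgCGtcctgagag

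The bases of H3K27me3 found in wt alone formed 2 pieces within the spans of both domains, and the larger ran from 74651032 to 74673696, 22665 bp, over the whole of Evx2 and Hoxd13. It ranked 8 of 13916 such pieces in the genome by length, whose median was 654 bp. A piece overlapping Hoxb3 and Hoxb4 was longer, at 24269 bp, and another overlapping Hoxb5, Hoxb6 and Hoxb7 measured 22498 bp. Of the bases of the Hoxd piece 6674 were exonic, 3183 intronic and 12808 outside the members. The piece held 31.8 CpG per kb, the stretch from Hoxd12 to Hoxd1 held 27.9, and chromosome 2 as a whole held 8.53. Bases of H3K27me3 found in wt+TNFα alone formed 6 pieces with 17260 bp in all, and all 6 lay beyond Hoxd1, where wt had separate peaks with gaps between them. H3K4me3 bases found in wt+TNFα alone came to 7184 bp in 8 pieces, and those found in wt alone to 41 bp in 2 pieces.

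From Hoxd11 onward, the genes of the middle of the cluster, which pattern the limb and the trunk, kept H3K27me3 over their whole length in both conditions. Hoxd11 and Hoxd9 also had a small H3K4me3 peak in wt+TNFα that was not called in wt. That of Hoxd11 ran from 74682398 to 74683137, 740 bp within an exon, with a summit 556 bp downstream of the nearer of its 2 annotated starts. That of Hoxd9 ran from 74697754 to 74698610, 857 bp within an exon, with a summit 416 bp downstream of the start. Their fold enrichments of 4.70 and 5.40 were higher than 0.765% and 2.01% of the wt+TNFα list, so both were among the weakest H3K4me3 peaks called. The part of the higher read number in these calls was not tested. Both peaks were rich in CpG, with 138 per kb at Hoxd11 and 111 per kb at Hoxd9. The RefSeq promoters beside them are shown for comparison with those above, again with CpG in capitals, and held 25 and 20 CpG. The Hoxd11 window ends before the peak begins, and the last bases of the Hoxd9 window lie within the peak.
Hoxd11 promoter, inner start, chr2:74682073-74682372, plus strand: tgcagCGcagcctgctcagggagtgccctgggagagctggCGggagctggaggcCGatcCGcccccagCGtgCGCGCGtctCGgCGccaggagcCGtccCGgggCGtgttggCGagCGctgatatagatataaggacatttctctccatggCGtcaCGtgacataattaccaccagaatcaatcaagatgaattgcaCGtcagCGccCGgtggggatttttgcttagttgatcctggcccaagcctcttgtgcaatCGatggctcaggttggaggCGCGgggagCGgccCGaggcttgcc
Hoxd9 promoter, chr2:74697513-74697812, plus strand: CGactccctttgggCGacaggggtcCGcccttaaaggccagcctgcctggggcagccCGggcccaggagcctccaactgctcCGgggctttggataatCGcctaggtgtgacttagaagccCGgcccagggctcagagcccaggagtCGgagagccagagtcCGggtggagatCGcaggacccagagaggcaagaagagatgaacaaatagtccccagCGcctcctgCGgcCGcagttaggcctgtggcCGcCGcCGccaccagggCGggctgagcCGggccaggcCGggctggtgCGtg

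Hoxd12, Hoxd10, Hoxd8, Hoxd4, Hoxd3 and Hoxd1 had no H3K4me3 peak at a promoter in either condition. The annotated Hoxd4 lies wholly within Hoxd3, so their promoters share sequence and cannot be counted as separate observations. More broadly, all 10 genes lay under the same wt peak, so the 10 H3K27me3 values are readings of a single domain. Of 10 other annotated genes within the interval, which include Haglr, an antisense long noncoding RNA, and Mir10b, a microRNA gene, all had 100% of their promoter bases under H3K27me3 in both conditions. Only Gm28309, beside the Hoxd11 peak, and Gm28793, an antisense transcript just upstream of Hoxd9, had H3K4me3, over 34.6% and 41.6% in wt+TNFα and 0% in wt.

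On both sides of the cluster the nearest genes had no H3K27me3 at the promoter in either condition. Lnpk, on the Evx2 side, had an H3K4me3 peak whose fold enrichment was 37.7 in wt and 40.3 in wt+TNFα. At Mtx2, on the Hoxd1 side, it was 44.7 and 39.8. Between Lnpk and Evx2, H3K27me3 covered 24.1% of 73555 bp in wt and 8.78% in wt+TNFα. Between Hoxd1 and Mtx2 it covered 64.5% of 60660 bp in wt and 92.5% in wt+TNFα, and further out, between Mtx2 and Hnrnpa3, 29.6% and 69.9%. Less H3K27me3 in wt+TNFα was thus seen between Lnpk and Evx2, and more in the stretches from Hoxd1 to Mtx2 and from Mtx2 to Hnrnpa3. Further out on the Evx2 side, H3K27me3 lay over 34.2% of the promoter bases of Chn1 in wt and 79.3% in wt+TNFα. The promoters of Atp5g3 and Atf2 had 0% in both conditions, and that of Chrna1 had 100% in both.

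Compared with the other Hox clusters, Hoxd stood between Hoxc and Hoxb in the share under H3K27me3 in wt+TNFα. The interval of Hoxc was covered by H3K27me3 over 100% in both conditions and had no H3K4me3. That of Hoxb, from Hoxb13 to Hoxb1, was covered over 54.0% in wt and 24.2% in wt+TNFα. For Hoxa with Evx1 the H3K27me3 share was 2.36% in wt and 0% in wt+TNFα. Its H3K4me3 share was 32.8% and 33.2%, that of Hoxb 13.5% and 18.9%. H3K27me3 was called at the promoters of 10 Hoxd-interval genes in wt and 8 in wt+TNFα, of 8 and 5 of the 10 Hoxb genes, of 9 and 9 of the 9 Hoxc genes, and of 1 and 0 of the 12 Hoxa genes including Evx1. These differences were not tested, since there is 1 library for each.

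**Figure D4:**
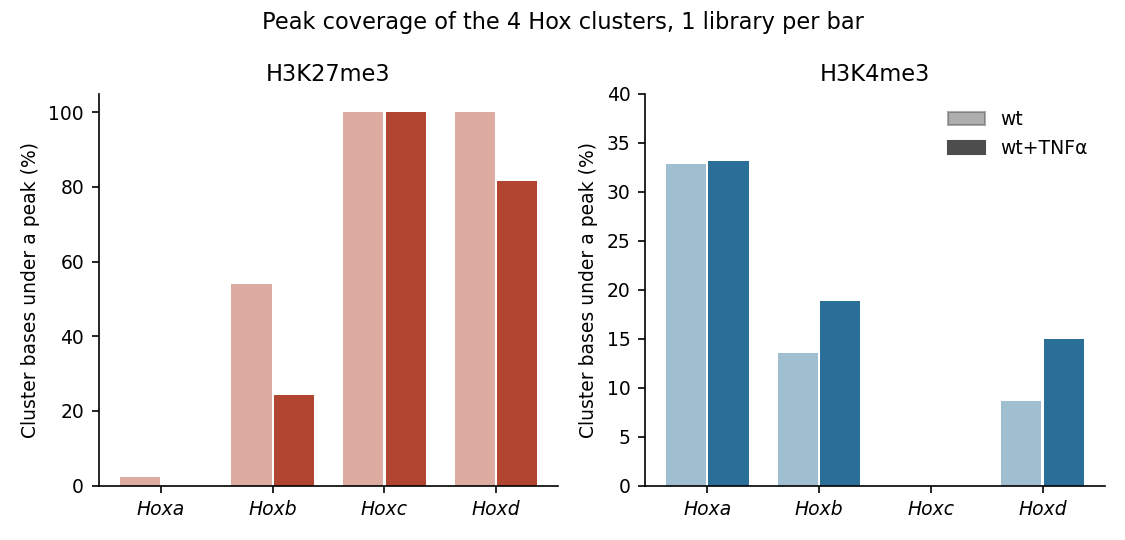
Share of each Hox cluster under a peak (%, y axis) in wt (pale bars) and wt+TNFα (dark bars), for H3K27me3 on the left and H3K4me3 on the right; Hoxd includes Evx2 and Hoxa includes Evx1. H3K27me3 covered less of Hoxb and Hoxd in wt+TNFα (24.2% against 54.0%, and 81.5% against 100%) and all of Hoxc in both.

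The genes most like Evx2 and Hoxd13 were sought among 31 genes, the other Hox genes and Evx1, by the distance between their 4 promoter shares (2 marks in 2 conditions, in percentage points). The nearest was Evx1, the relative of Evx2 beside the Hoxa cluster on chromosome 6 (52313498 to 52318378), at a distance of 83.0. H3K27me3 lay over 43.4% of its promoter bases in wt and 0% in wt+TNFα. H3K4me3 lay over 52.2% and 62.5%, with a fold enrichment of 7.52 in wt and 22.1 in wt+TNFα. Its wt H3K27me3 peak was 2447 bp wide with a fold enrichment of 2.198, far narrower than the domain over Hoxd. Next came Hoxa11, Hoxa13 and Hoxb13, each at 100, which differ in having no H3K27me3 in wt, and Hoxa4 at 103. By H3K27me3 alone, Hoxb3, Hoxb5 and Hoxb6 matched Evx2 and Hoxd13, with 100% in wt and 0% in wt+TNFα. They differed in H3K4me3, with 0% in wt, and in wt+TNFα 46.9% at Hoxb6 and 0% at Hoxb3 and Hoxb5. Their distances were 113 for Hoxb6 and 141 for Hoxb3 and Hoxb5.

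Among the group 13 genes, the most posterior of each cluster, Hoxd13 was the only one that carried H3K27me3 in wt and not in wt+TNFα. Hoxa13 and Hoxb13 had H3K4me3 without H3K27me3 in both conditions. Their fold enrichments were 41.6 and 27.9 in wt and 49.8 and 42.5 in wt+TNFα, and their peaks 11363 bp and 8158 bp wide in wt+TNFα. Hoxc13 had H3K27me3 over its whole promoter in both conditions and no H3K4me3 peak. In wt+TNFα the Hoxd13 peak, at 38.5 and 7280 bp, was lower and narrower than those of Hoxa13 and Hoxb13.

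**Figure D5:**
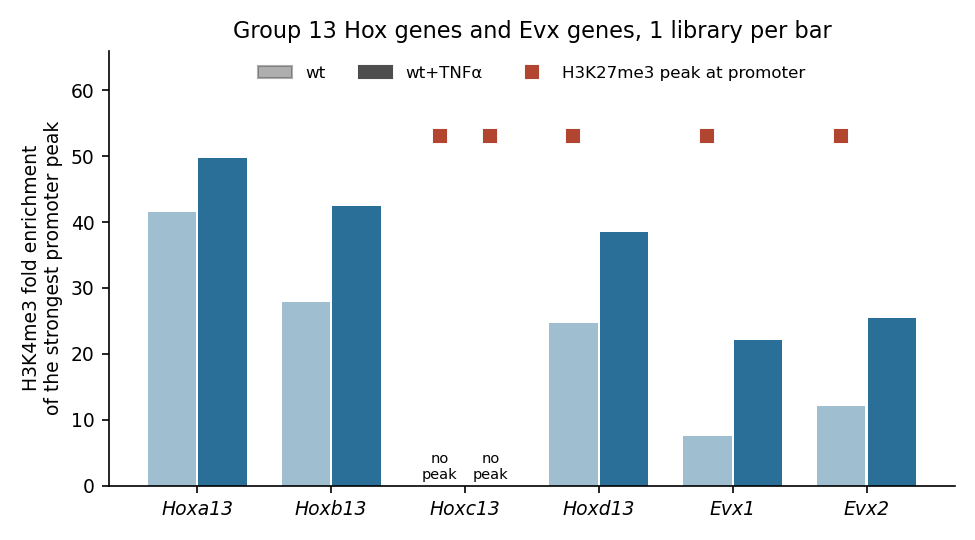
H3K4me3 fold enrichment of the strongest promoter peak (y axis) in wt (pale bars) and wt+TNFα (dark bars) for the group 13 Hox genes and the Evx genes; red squares mark promoters with an H3K27me3 peak. Hoxd13, Evx1 and Evx2 had the square in wt alone, and Hoxc13 had it in both conditions with no H3K4me3 peak.

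Hox proteins bind DNA with partners of the Pbx, Meis and Pknox families, and Cdx factors act upstream of Hox genes. Among 12 genes of these families, H3K27me3 was called at the promoters of 5 in each condition and H3K4me3 at those of 9. A gain of H3K27me3 bases was called at 5 of them, Meis1, Meis2, Meis3, Pknox2 and Cdx4, and a loss at Meis2 as well. All 5 genes with a H3K27me3 peak in wt+TNFα were thus called as gained, where 74.0% of all such genes were, and 1 of the 5 with a wt peak was called as lost, where 23.8% of all such genes were. Of the 9 genes with H3K4me3, a gain of bases was called at 5 and a loss at 4, where the shares over all genes were 78.6% and 41.0%. Meis1 had 68.1% of its promoter bases under H3K27me3 in wt and 100% in wt+TNFα, and Pknox2 had 55.5% and 95.1%. Cdx4 lies on chromosome X, where the wt+TNFα library stood apart. Cdx2, the intestinal master regulator, had H3K4me3 over 65.6% in wt and 58.7% in wt+TNFα, and had no H3K27me3 at its promoter in either condition.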

How the data were processed

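The members and gene lists were chosen with earlier results of these data known. As the study's methods describe, the authors aligned reads to GRCm38/mm10, removed duplicates and called broad H3K27me3 and narrow H3K4me3 peaks against the input with MACS2. The submitters' processing notes list BWA 2.2, SAMtools 1.11 and MACS2 2.1.0, and the study names different MACS2 versions in different places. Each deposited list gives for every peak a fold enrichment (a ratio over local background), −log10 p-values and q-values, and a display score. The name of every deposited list except wt+TNFα H3K27me3 mentions a spike-in. Reads and inputs were not analysed here. The study states read totals for each library, and the deposited lists give no read count for a peak.

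Peaks were read as 1-based intervals and merged within a list. Bases found in 1 condition alone were taken with bedtools subtract (version 2.31.1), and a gene was called when at least 1 bp of such a piece lay within 1000 bp of a transcript start. Transcript starts came from GENCODE release 21 (55450 genes, 141767 transcripts). RefSeq promoters matched 10 of 10 members, in 11 entries. The rule for named genes took all members, the other genes of the interval, the nearest coding genes, the other Hox genes, the cofactor list, and the 5 Hox genes nearest in promoter shares. Apart from the members, not every gene under this rule is named here. Steps were run in Python 3.11.15 and checked on simulated peak lists. Alternatives varied the promoter, the subtraction and the peaks kept.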

Additional observations from a re-analysis of the deposited data

How the results depend on the processing

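No paired analysis was possible because there is 1 library per condition and mark. For the same reason no library could be left out, and neither the error of a peak edge nor the part of the read number is known. The loss of H3K27me3 was called at Evx2 and Hoxd13, with no other gene, under 11 of 14 alternatives. It was called at Hoxd12 as well with promoters of 2000 bp or of 5000 bp (a width chosen after seeing the data) on each side, and at 0 genes with whole peaks subtracted, since the long wt peak overlaps the wt+TNFα domain. A gain of H3K27me3 was called at 0 genes under all 13 alternatives. None of them could have called a gain, since the wt peak that covered these promoters wholly was kept under each.

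The gain of H3K4me3 depended most on the settings and was called at Hoxd11 and Hoxd9 alone under 6 of 13. It was called at 4 genes with promoters of 2000 bp, at 5 with 5000 bp, at 0 with promoters from 1000 bp upstream to the start, at 1 (Hoxd9) with 1 start per gene, at 1 (Hoxd9) with equal numbers of peaks, and at 0 with equal covered length. With only peaks above the median −log10 q of each list, it was called at Evx2 and Hoxd13 in place of Hoxd11 and Hoxd9. A loss of H3K4me3 was called at 0 genes in 11 of 12 alternatives and at 1 (Hoxd12, from the 6 bp past Hoxd13) with promoters of 2000 bp. With peaks above that median alone, which was 161 in wt and 180 in wt+TNFα, H3K4me3 covered 0% of the interval in wt, as both Evx2 and Hoxd13 peaks fell below it, at 45.1 and 148, and lay above it in wt+TNFα, at 181 and 283. Under the other alternatives the H3K4me3 share was between 8.62% and 12.42% in wt, and under all 4 it was between 12.85% and 17.51% in wt+TNFα. The H3K27me3 share was 100% in wt and 81.5% in wt+TNFα under all 5 alternatives. Each share rests on 1 peak, with a −log10 q of 9.65 in wt and 19.5 in wt+TNFα, against list medians of 0.779 and 1.34. Every filter kept these peaks, and the uncovered stretch was too long to be joined. The agreement therefore says nothing about where the edge lies.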
